A study of Homo sapiens with 6 samples.

Results

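The data described here are the transcript levels of NCI-H2023 cells, a human lung adenocarcinoma line, given a synthetic mimic of the microRNA miR-29a-3p, set against the same cells given a negative control RNA. They come from 4 of the 6 samples of the series, chosen by their titles: 2 samples with the mimic, lettered A and B, and 2 with the control, lettered A and B. The other 2 samples received a mimic of miR-223-3p and enter only the shared estimate of spread and a few values quoted beside the results. All groups were reverse transfected with a lipid reagent at 0.5 nM of RNA in 6-well plates, with fresh medium at 24 h. The control appears as a mimic control in the sample titles but as a negative control siRNA in the treatment protocol, and no harvest time is given. Nothing in them says that A and B came from separate cultures, so p-values cover only the spread between these samples, and that spread may be technical. Of the 21448 probe sets on the array, 17687 represent a named gene once, and all of these were compared.

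A microRNA acts inside an Argonaute protein, which it guides to messenger RNAs that pair with its seed, the bases near its 5′ end. Pairing in a 3′ untranslated region lowers translation and usually the level of the messenger itself, so direct targets tend to fall, while genes that respond to those targets can go either way. The miR-29 family is known for restraining collagens, elastic fibre genes and other matrix genes, and DNA methylation and demethylation enzymes. The mature sequences below are those of RefSeq on GRCh38.p14, written 5′ to 3′ with the seed (bases 2 to 8) in capitals. They are shown because the mimic shares its seed with 2 other microRNAs of its family and not with the second mimic of the series.
hsa-miR-29a-3p: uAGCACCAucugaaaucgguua
hsa-miR-29b-3p: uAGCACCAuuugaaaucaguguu
hsa-miR-29c-3p: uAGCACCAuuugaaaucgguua
hsa-miR-223-3p: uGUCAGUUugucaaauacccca
Counted from 1 at the 5′ end, miR-29c-3p differs from miR-29a-3p by the single substitution C10U. The sequence of miR-29b-3p differs by C10U, G18A, U21G and A22U and is 1 base longer, at 23 bases against 22. Of 2545 mature entries 4 carry the seed AGCACCA, and these entries bear 3 names, since 2 genes encode miR-29b-3p. The gene of miR-29a-3p holds the mature sequence at chr7:130876748-130876769 on the minus strand. Sites for this seed in the messengers were not analysed here, and the level that the mimic itself reached in the cells was not measured.

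The median log2 signal of an array was 6.21 to 6.23. The control samples correlated at 0.995 across genes, the miR-29a-3p samples at 0.9938, and samples of different groups at 0.9927 to 0.9936. Epithelial markers of the list differed widely in signal. KRT8 lay between 17.33 and 17.39, KRT7 between 16.34 and 16.45, and EPCAM between 10.16 and 10.59. The lung lineage markers were dim. NKX2-1, a transcription factor of lung epithelium, lay between 4.91 and 5.11, and NAPSA and all surfactant genes of the list had means under 6, as did 8 of 17 epithelial markers in all. Among markers of other cells, 13 of 13 fibroblast and endothelial genes and 10 of 14 leukocyte genes had means under 6. The mean log2 signal of the fibroblast and endothelial genes was 4.3008 and 4.3085 in the controls and 4.3262 and 4.0962 with miR-29a-3p, and that of the leukocyte genes was 5.1564 and 5.0864 against 5.09 and 5.1421. The 17 epithelial markers had a median difference of 0.05.

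The main question was which genes differed between the mimic and the control. In the main test, limma with 1 prior variance for all genes and Benjamini-Hochberg adjustment over 17687 genes, 2 genes passed at 0.05, which is 0.0113% of those tested. One rose and the other fell. TM4SF4, a surface protein of the L6 tetraspan family, read 10.30 and 10.03 in control A and B and 12.46 and 12.29 in miR-29a-3p A and B, a rise of 4.63-fold (log2 difference 2.21, SE 0.187, adjusted p = 0.0142). In the miR-223-3p samples it read 10.53 and 10.64. C1QTNF6, a secreted C1q-like protein, read 10.30 and 10.18 in the controls and 8.21 and 8.27 with miR-29a-3p, a 4-fold fall (log2 difference -2, SE 0.173, limma adjusted p = 0.0142). It read 10.59 and 10.51 with miR-223-3p. For both genes the samples of the groups were far apart. Leaving out any 1 of the 4 samples ended both calls, with adjusted p-values from 0.182 to 0.297 for TM4SF4 and from 0.22 to 0.297 for C1QTNF6. C1QTNF6 is on a list of published miR-29 targets. Of 6 L6 family members TM4SF4 alone had an adjusted p under 0.05 in either fit used here, with TM4SF1 at 0.17, TM4SF20 at 0.42 and TM4SF5 at -0.3, and of 15 C1q-related genes C1QTNF6 alone was.

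The spread between samples was smaller at high signal. The median residual SD was 0.2429 among the 8092 genes with a mean under 6 and 0.1108 among the 1664 genes at 12 or more. A second fit let the prior variance follow the mean signal, and genes with an adjusted p under 0.05 in it are called "called with the intensity trend" or "called" from here on. It called 59 genes higher (0.334% of those tested) and 123 genes lower (0.695%), with both TM4SF4 and C1QTNF6 among them. Of the 8092 genes with means under 6, 2 were called higher and 5 lower. Of the 1664 genes at 12 or more, 17 were called higher and 25 lower. The shares of all genes called that are quoted below are therefore low as a background for lists of bright genes. In all 182 the mimic samples lay apart from the controls, so the lack of overlap in a called gene below is no further evidence for it. Over all genes both mimic samples lay above both controls for 19% and below both for 18.8%. At an unadjusted p under 0.05 with the constant prior 4.19% of genes were higher and 4.67% were lower. The count of calls depended on each sample, with 51 called without control A, 81 without control B, 55 without miR-29a-3p A and 45 without miR-29a-3p B. Of all genes 8814 were higher and 8753 lower, and the median difference was 0. A list of 104 published miR-29 targets, 91 of them measured, held 10 of the genes called lower and 0 of those called higher in limma, and 20 of its members were lower and 2 higher at an unadjusted p under 0.05. Those 10 were TDG, TET2, KDM5B, HBP1, ADAM12, ADAMTS9, FBN1, C1QTNF6, HMGCS1 and RCC2. The results below concern chiefly the other 113 genes called lower and the 59 called higher. A gene that is off this list may still be a target of miR-29.

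**Figure D1:**
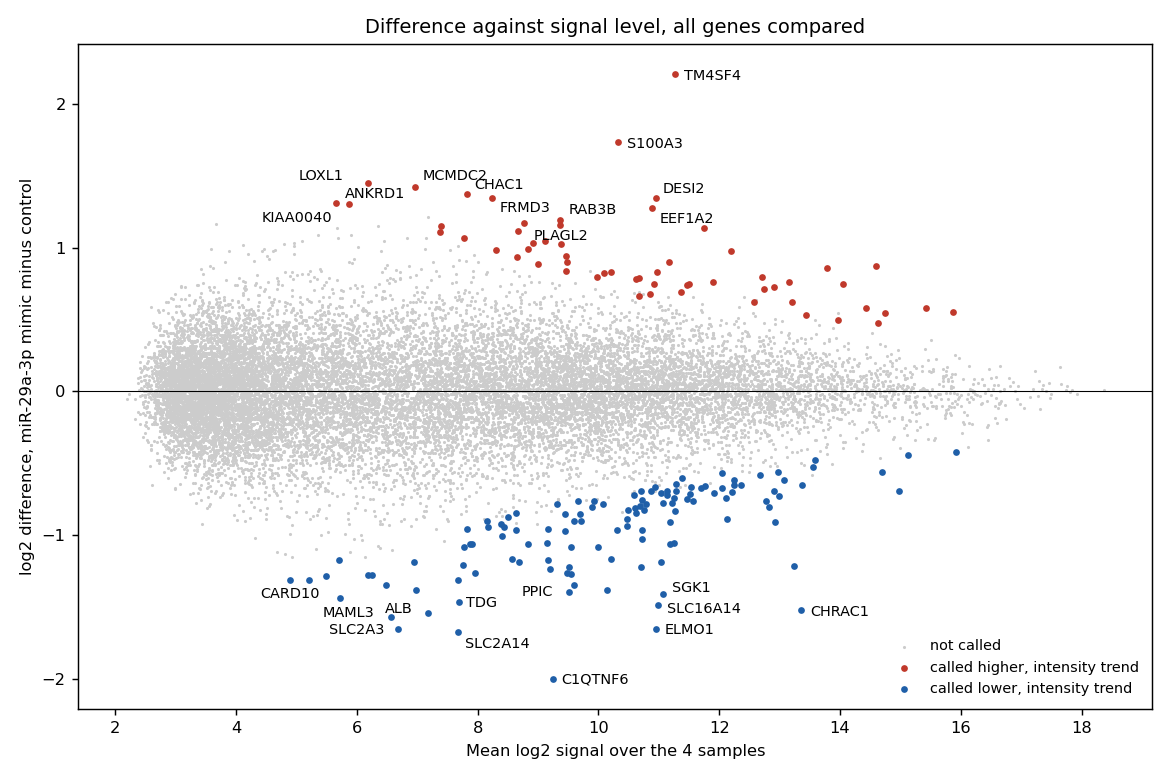
The log2 difference (miR-29a-3p minus control, vertical axis) of each of the 17687 genes against its mean log2 signal over the 4 samples (horizontal axis); red and blue points are genes called higher and lower with the intensity trend, and the names are the 12 largest of each. TM4SF4 at 2.21 and C1QTNF6 at -2 lie farthest from 0, and the cloud of uncalled genes narrows toward high signal.

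There were 26 genes called with the intensity trend in the full data and again without each of the 4 samples in turn, 9 higher and 17 lower. Besides TM4SF4, the higher genes with the largest differences encode a calcium-binding protein, a protease and a translation factor. S100A3, of the calcium-binding S100 family, read 9.48 and 9.42 in the controls and 11.11 and 11.26 with miR-29a-3p, a difference of 1.735 (SE 0.186 in the trend fit, limma adjusted p = 5.391e-05). DESI2, a deSUMOylating protease, read 10.26 and 10.29 against 11.73 and 11.51, a difference of 1.345. EEF1A2, a form of the elongation factor that carries aminoacyl-tRNA to the ribosome, read 10.12 and 10.38 against 11.52 and 11.53, a difference of 1.275. In all of them both mimic samples lay over 1 log2 unit above the higher control. Of 20 translation initiation and elongation genes EEF1A2 was the only one called, where 0.334% of all genes were called higher. The median of that list was 0.0575.

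Further higher genes of this group act in metabolism and at the cell surface. NT5E, the CD73 enzyme that makes adenosine outside the cell, read 11.21 and 11.16 against 12.30 and 12.35, a difference of 1.14. GNPNAT1, an acetyltransferase of the hexosamine pathway that feeds protein glycosylation, read 11.84 and 11.56 against 12.72 and 12.64, a difference of 0.98. SLC7A11, the cystine importer that supplies glutathione synthesis, read 14.21 and 14.12 against 15.14 and 14.94, a difference of 0.875. The groups did not overlap in any of them, as in all called genes. In the miR-223-3p samples, compared with the same controls, NT5E read 12 and 12.2, GNPNAT1 12.72 and 12.62, and SLC7A11 14.46 and 14.41. The kinase UHMK1 and the amino-terminal acetyltransferase NAA50 completed the group, at 0.795 and 0.75.

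On the lower side the 26 genes included signalling, cytoskeletal and chromatin genes. ELMO1, the partner of DOCK proteins in switching on Rac during engulfment and migration, read 11.93 and 11.63 in the controls and 10.15 and 10.10 with miR-29a-3p, a 3.15-fold difference (log2 -1.655, SE 0.158, limma adjusted p = 1.223e-05 with the trend). Of 29 genes of Rac signalling and engulfment it was the only one called, where 0.695% of all genes were called lower. CHRAC1, a histone-fold subunit of the chromatin accessibility complex, read 14.21 and 14.03 against 12.72 and 12.47, a difference of -1.525. Its usual partner in that complex, POLE3, differed by -0.385 and was not called. MYLK, the kinase that activates smooth and non-muscle myosin, read 10.74 and 10.92 against 9.74 and 9.15, a difference of -1.385. SGK1, a kinase activated downstream of PI3K, read 11.79 and 11.77 against 10.53 and 10.21, a difference of -1.41. Control and mimic samples were well separated in each, though the mimic samples of MYLK differed from each other by more than the controls did.

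Secreted and surface proteins were also among the lower genes. IGFBP3, which binds insulin-like growth factors, read 13.79 and 13.90 against 12.80 and 12.46, a difference of -1.215. CXCL16, a chemokine made as a membrane protein, read 10.00 and 10.26 against 8.91 and 8.90, a difference of -1.225. RBP4, the carrier of retinol in plasma, read 15.29 and 15.37 against 14.59 and 14.69, a difference of -0.69. All mimic samples of these genes lay below both controls, as in all genes called lower. PPIC, a prolyl isomerase of the secretory pathway, read 10.28 and 10.14 against 9.03 and 8.59, a difference of -1.4. SLC16A14, of the monocarboxylate transporter family, read 11.78 and 11.69 against 10.45 and 10.04, a difference of -1.49, whereas SLC16A4 of the same family was called higher at 0.86. PEDS1, which makes plasmalogen lipids, differed by -1.06, and the readthrough gene PEDS1-UBE2V1, which overlaps it, by -0.62. The probes of these overlapping genes may not tell them apart.

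Cell-cycle genes appeared singly. MYBL2, a transcription factor of cell-cycle genes, read 11.60 and 11.66 against 10.52 and 10.37, a difference of -1.185. CDC25B, a phosphatase that activates cyclin-dependent kinases before mitosis, read 12.53 and 12.60 against 11.75 and 11.61, a difference of -0.885. RCC2, a chromosome-associated protein on the published target list, and ANKRD52, a regulatory subunit of protein phosphatase 6, differed by -1.225 and -1.265. The lists around them did not shift with them. Of 35 mitosis genes CDC25B was the only one called, where 0.695% of all genes were called lower. The median of the mitosis list was 0.045, with 21 members higher and 13 lower. Of 37 DNA replication genes 1 was called, GINS1 of the GINS helicase complex at -0.72, against the same share of all genes. The median of the replication list was -0.06.

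**Figure D2:**
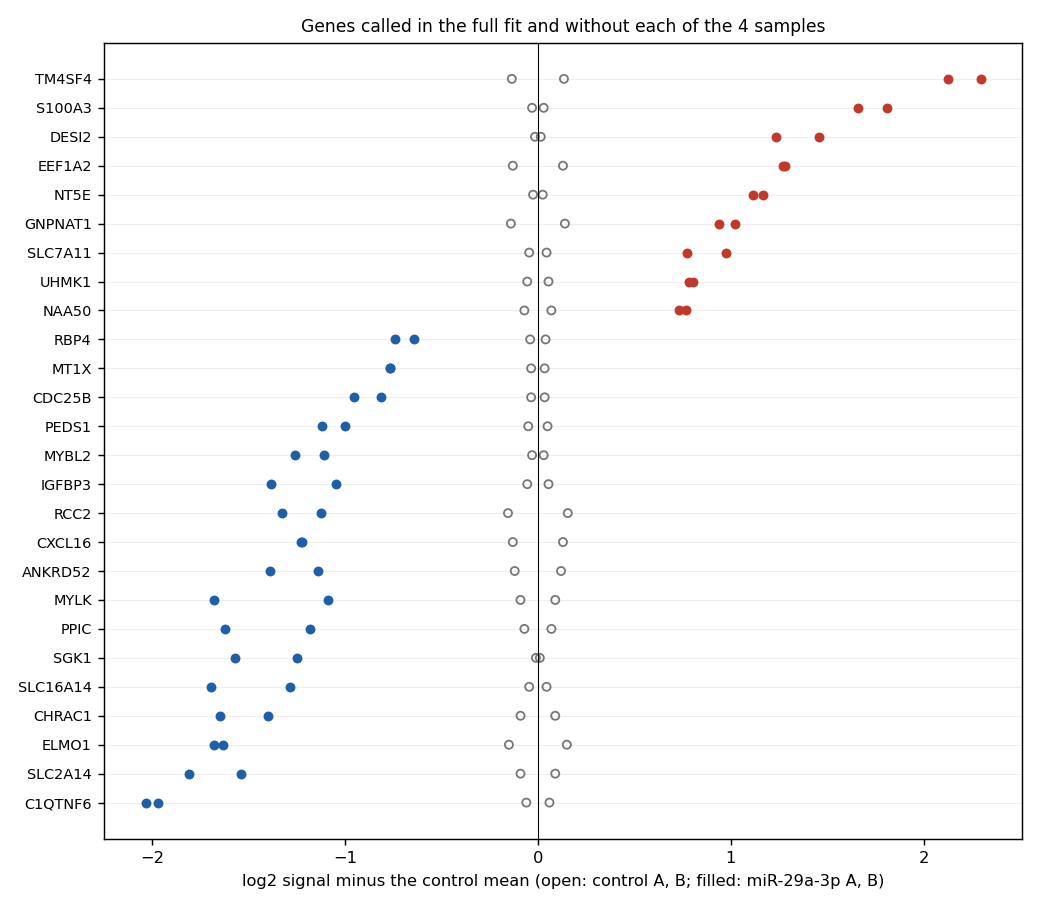
Each row is 1 of the 26 genes called in the full data and without each of the 4 samples; points give the log2 signal of a sample minus the mean of the 2 controls (open: control A and B; red or blue filled: miR-29a-3p A and B, higher or lower). The filled points lie clear of the open ones in every row, as in all called genes. Means run from 2.21 for TM4SF4 to -2 for C1QTNF6.

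Of the lower genes with the largest differences, a pair lies side by side. SLC2A14 and SLC2A3, both facilitative glucose transporters, are neighbours on chromosome 12 at chr12:7812514-7891196 and chr12:7919230-7936187. SLC2A14 read 8.42 and 8.60 in the controls and 6.70 and 6.97 with miR-29a-3p, a difference of -1.675. SLC2A3 read 7.50 and 7.52 against 5.57 and 6.14, a difference of -1.655. They are near-identical copies, so their values are uncertain as separate measurements. Of 21 glycolysis genes 0 were called in limma, 0 had an unadjusted p under 0.05, and the median was 0.01. PECR and TMEM169 on chromosome 2 were the other adjacent called pair outside the metallothioneins, at -0.62 and -1.235.

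Other genes with large differences were dimmer or more variable. CHAC1, which degrades glutathione and is induced by amino acid stress, read 7.10 and 7.18 in the controls and 8.41 and 8.62 with miR-29a-3p, a difference of 1.375. Of the 4 fits with the intensity trend that each left out a sample, 3 called CHAC1, FRMD3 at 1.35 and the vesicle GTPase RAB3B at 1.195. Only 1 of them called MCMDC2 at 1.425 and the zinc finger factor PLAGL2 at 1.17, and 0 called KIAA0040 at 1.305, LOXL1 at 1.45 or ANKRD1 at 1.31. Among lower genes TDG, a DNA glycosylase of active demethylation and a published target, differed by -1.465 and was called in 3 of these fits. MAML3, a Notch coactivator, read 7.09 and 7.62 against 5.73 and 5.84, a difference of -1.57, and was called in 1. CARD10, a scaffold that joins receptors to NF-kB, read 6.24 and 6.63 against 4.90 and 5.09, a difference of -1.44, and was called in 0 of them. ALB, serum albumin, read 8.50 and 7.41 against 6.06 and 6.77, so its difference of -1.54 comes with a wide spread in both groups.

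The metallothioneins were the list with the most negative median. These small cysteine-rich proteins bind zinc and copper, and their genes form a cluster on chromosome 16 that is switched on by metal through the factor MTF1. Of 10 members measured, 9 were lower with miR-29a-3p and 1 was equal to within 0.005, with a median of -0.5325 against 0 over all genes. Both mimic samples lay below both controls for 8 of 10, where the share over all genes was 18.8%. Of the 10, 4 were called lower against a background of 0.695% of all genes, a share that is higher among bright genes. At an unadjusted p under 0.05 with limma's constant prior, 7 were lower and 0 higher, against 4.67% and 4.19% of all genes.

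MT1X read 13.12 and 13.19 in the controls and 12.39 and 12.39 with miR-29a-3p, a 1.7-fold difference (log2 -0.765, SE 0.12, limma adjusted p = 0.00238 with the trend). MT1F read 11.06 and 10.53 against 9.89 and 9.77, a difference of -0.965. MT1G read 13.33 and 13.38 against 12.93 and 12.32, a difference of -0.73. MT2A, the widely expressed member, read 15.37 and 15.32 against 14.88 and 14.92, a difference of -0.445. The groups did not overlap in any of the called members, as in all called genes. The controls of MT1F and the mimic samples of MT1G were far from each other. MT4 was dim and did not differ, at 4.35 and 4.67 against 4.37 and 4.66. MT3 read 6.27 and 6.07 against 6.20 and 5.18. In the miR-223-3p samples MT1X read 13.44 and 13.34 and MT2A 15.77 and 15.60. MT1X was called without each of the 4 samples, and 1 to 2 members were called without any given sample. The MT1 genes are near-identical copies in tandem, so their probe sets may share signal and are not independent measurements.

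The promoters of 5 metallothioneins were in the RefSeq table, which holds 300 bases for 14250 of the 17687 genes, 250 before and 50 after the start. The core of the metal response element was searched on both strands as TGCACNC or TGCGCNC, and 5 of 5 held a match, against 35.09% of all promoters. The stretches below are shown to set 2 called members beside the member that did not differ. Each is 150 bases upstream of the start on the plus strand of GRCh38.p14, 5′ to 3′, with matches in capitals on either strand.
MT1X, chr16:56682290-56682439: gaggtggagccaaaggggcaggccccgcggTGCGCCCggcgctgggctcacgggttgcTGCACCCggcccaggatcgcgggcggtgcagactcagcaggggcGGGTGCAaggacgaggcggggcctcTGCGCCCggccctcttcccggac
MT2A, chr16:56608404-56608553: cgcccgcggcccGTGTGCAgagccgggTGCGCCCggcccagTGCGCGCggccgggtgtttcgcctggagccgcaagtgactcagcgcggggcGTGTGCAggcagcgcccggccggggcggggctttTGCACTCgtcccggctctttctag
MT4, chr16:56564853-56565002: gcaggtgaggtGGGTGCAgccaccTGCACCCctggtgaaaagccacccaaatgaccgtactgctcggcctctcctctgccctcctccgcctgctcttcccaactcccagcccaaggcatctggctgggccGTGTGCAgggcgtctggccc
The stretches hold 4 matches for MT1X, 5 for MT2A and 3 for MT4. A match is a description of the letters and not evidence of binding. The list is of genes known to be switched on by metal, so the share of promoters with a match describes the list and not its response.

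Enzymes of amino acid synthesis were among the higher genes. Serine, asparagine and one-carbon enzymes of this kind are known to be induced by ATF4 when amino acids run short or proteins fold poorly. Of 19 members 12 were higher and 7 lower, with a median of 0.26. Of these 4 were called higher and 1 lower, where 0.334% and 0.695% of all genes were. Bright genes such as most of this list were called more often than those shares. The median was 0.14 without control A and 0.105 without miR-29a-3p A. Both mimic samples lay above both controls for 9 of 19, against 19% of all genes, and below for 4, a share near the 18.8% of all genes. PHGDH, the first enzyme of serine synthesis, read 10.51 and 10.91 in the controls and 11.69 and 11.54 with miR-29a-3p, a difference of 0.905. PSAT1, the next enzyme of that pathway, read 15.12 and 15.15 against 15.65 and 15.78, a difference of 0.58. ASNS, asparagine synthetase, read 12.64 and 12.43 against 13.52 and 13.01, a difference of 0.73. ALDH1L2, a mitochondrial folate enzyme, read 9.42 and 9.74 against 10.40 and 10.35, a difference of 0.795. None of these overlapped between groups, as in all called genes. The call in the other direction was BCAT2, a branched-chain aminotransferase, at 10.08 and 10.52 against 9.68 and 9.31, a difference of -0.805. The number of members called without 1 sample ran from 0 to 3.

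Related lists had medians nearer 0. Of 20 amino acid transporters 1 was called higher, SLC7A11, and 1 lower, the cationic amino acid transporter SLC7A2 at -1.085, with a median of 0.08. The shares of all genes called higher and lower were 0.334% and 0.695%. Of 23 stress response regulators CHAC1 was the only call, against 0.334% of all genes called higher, and the median was 0.035. ATF4 itself read 13.30 and 13.41 against 13.43 and 13.51, a difference of 0.115. PPP1R15A, a phosphatase subunit that reverses the translation block, read 8.13 and 8.22 against 8.37 and 9.48, so its difference of 0.75 rests on sample B of the mimic. CEBPB differed by -0.755 and was not called. Of 16 cytoplasmic tRNA synthetases 14 were higher, with IARS1 at 0.41 and GARS1 at 0.355. Their median of 0.155 was 0.085 without miR-29a-3p A and 0.27 without miR-29a-3p B. None of the 16 was called in limma, and 0 had an unadjusted p under 0.05 with the constant prior and 3 with the trend. Of 24 chaperones and other genes of the endoplasmic reticulum stress response 0 were called, 1 was higher and 1 lower at an unadjusted p under 0.05, and the median was -0.0625. A fixed spelling of the composite element bound by ATF4, TGATGNAAT, was searched on both strands. Sites that end in another base were not counted, so a promoter without a match may still hold the element. This spelling was present in 2 of 13 amino acid synthesis promoters, those of MTHFD1L and BCAT1. It was found in 1 of 20 promoters of stress regulators and 0 of 17 promoters of transporters, against 0.6316% of all promoters. Such enzymes are known to be induced by ATF4, so these shares describe the lists and not their response.

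Chemokines, cytokines and other genes tied to NF-kB were mostly higher as a list. The chemokines recruit neutrophils and monocytes, and promoters of such genes carry kB sites. The list also holds genes that are neither, among them the pathway genes NFKB1, NFKB2, RELB, NFKBIA and TNFAIP3. Of 24 members 18 were higher and 6 lower, with a median of 0.27, and 3 were called higher and 0 lower in limma, where 5 were higher and 1 lower at an unadjusted p under 0.05. Over all genes 0.334% were called higher, and 4.19% were higher and 4.67% lower at that unadjusted p. The list median ran from 0.1875 to 0.2475 when 1 sample was left out, and 7 of the 24 members had means under 6. CXCL1, a neutrophil attractant, read 8.86 and 9.12 in the controls and 9.95 and 9.92 with miR-29a-3p, a difference of 0.945. CXCL5, of the same family, read 15.55 and 15.64 against 16.27 and 16.03, a difference of 0.555. CSF1, the growth factor of macrophages, read 14.40 and 14.39 against 14.73 and 15.02, a difference of 0.48. Both mimic samples lay above the controls in each, as in all genes called higher. CXCL8 read 7.12 and 7.34 against 8.24 and 8.05 and missed the call, with a limma adjusted p of 0.058 in the trend fit. In the miR-223-3p samples CXCL5 read 16.13 and 15.86, and CSF1 read 13.93 and 13.87, below the controls. NFKBIA and TNFAIP3, inhibitors of the pathway, differed by -0.17 and -0.06. CXCL16, a CXC chemokine that is not on this list, was called in the other direction at -1.225. At most 1 member was called when any 1 sample was left out.

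The kB site was searched on both strands as GGG, any 2 bases and TTTCC, and was present in 10 of 17 promoters of the list, 58.82%, against 1.93% of all promoters. The stretches of 50 bases around the matches of CXCL1 and CXCL5 are shown for GRCh38.p14, 5′ to 3′ along each gene's strand, with the match in capitals.
CXCL1, chr4:73869293-73869342, plus strand: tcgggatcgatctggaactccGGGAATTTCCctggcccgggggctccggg
CXCL5, chr4:73998740-73998789, minus strand: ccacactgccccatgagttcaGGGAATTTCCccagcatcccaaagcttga
The genes chosen for this list are known for such sites, so the share describes the list and not its response. CXCL6, which holds the same match, read 6.79 and 6.75 against 6.93 and 7.20, a difference of 0.295, and was not called.

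**Figure D3:**
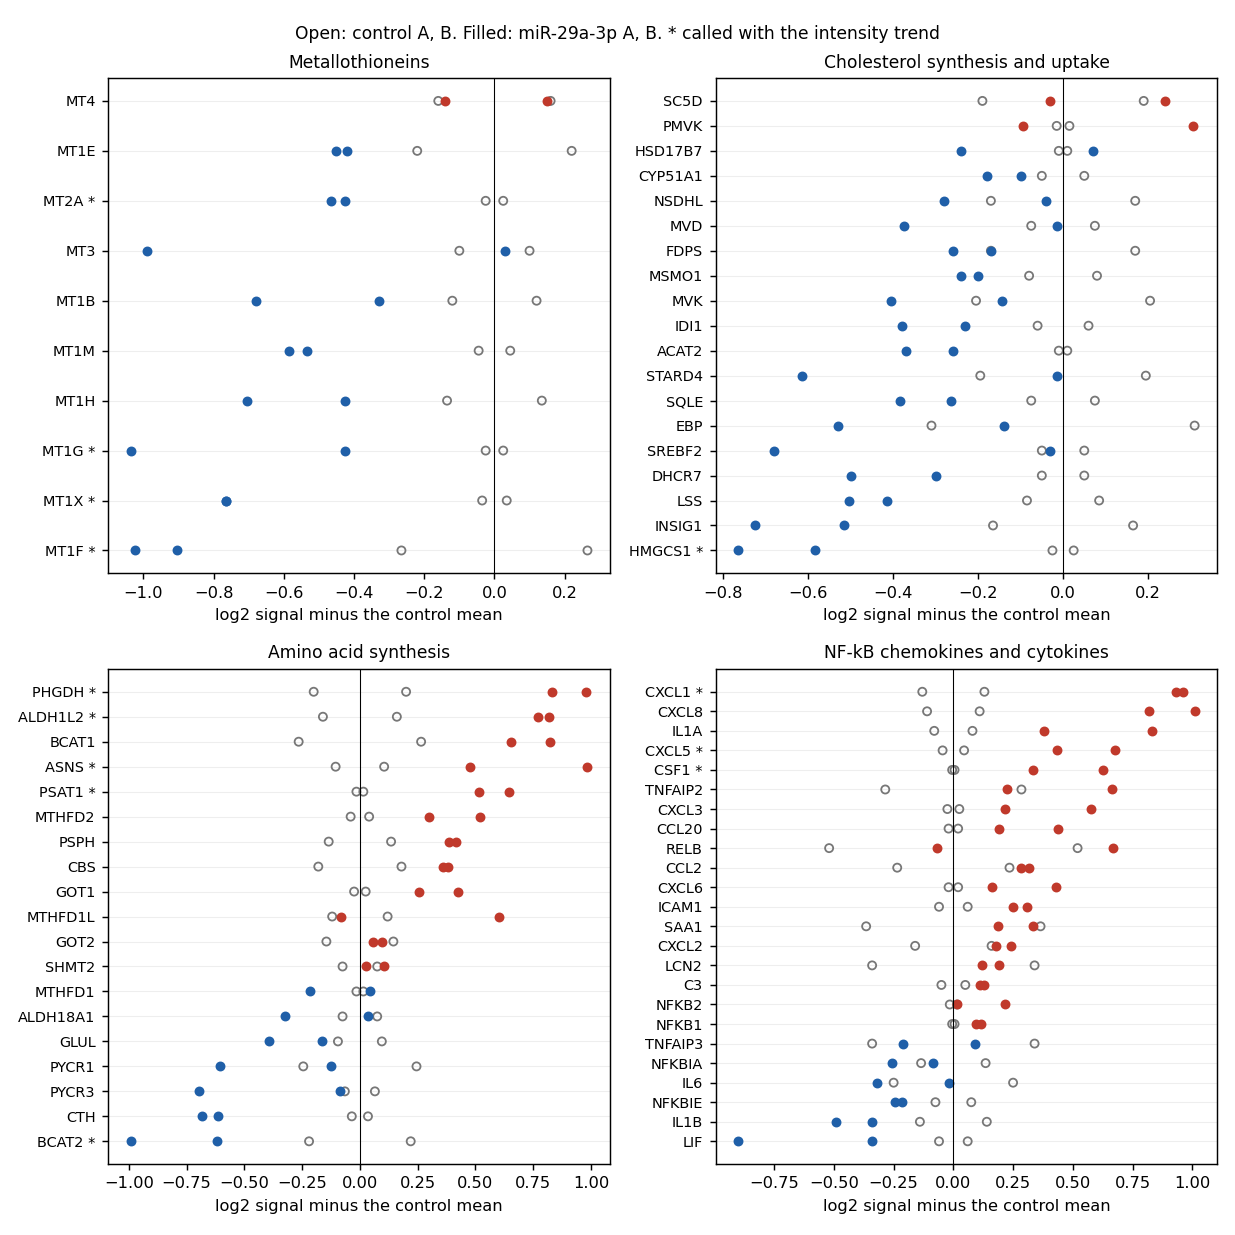
Members of 4 gene lists, 1 per row, as the log2 signal of each sample minus the mean of the 2 controls (open: control A and B; filled: miR-29a-3p A and B, red where the mean is higher and blue where it is lower; an asterisk marks genes called with the intensity trend). Metallothioneins lie to the left in 9 of 10 rows and cholesterol genes in 17 of 19, while 12 of 19 amino acid synthesis genes and 18 of 24 NF-kB genes lie to the right.

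Genes that report growth factor signalling through the MAP kinases included 3 called higher and 0 lower of 31, against 0.334% and 0.695% of all genes. Of the 31, 18 were higher and 13 lower. Both mimic samples lay above both controls for 10 and below for 8, against 19% and 18.8% of all genes. With limma's constant prior 6 were higher and 0 lower at an unadjusted p under 0.05, against 4.19% and 4.67% of all genes. In the trend fit 8 were higher and 2 lower at that p. FOSL1, a subunit of the AP-1 factor, read 8.53 and 8.65 in the controls and 9.80 and 9.48 with miR-29a-3p, a difference of 1.05. ETV5, an ETS factor induced by ERK, read 9.02 and 9.06 against 9.92 and 9.84, a difference of 0.84. DUSP1, a phosphatase that switches MAP kinases off, read 10.39 and 10.71 against 11.38 and 11.22, a difference of 0.75. The median of the list was 0.17, but it was 0.085 without control A and -0.02 without sample B of the mimic. FOSL1 read 8.35 and 7.46 with miR-223-3p. DUSP6 and SPRY4, feedback inhibitors induced by ERK, differed by -0.4 and -0.085.

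The genes induced by YAP and TAZ, the effectors of the Hippo pathway, had a median of 0.255 over 22 members, 15 higher and 7 lower. The median ran from 0.1875 to 0.3125 when 1 sample was left out. NT5E and ANKRD1 were called higher and IGFBP3 lower, where 0.334% and 0.695% of all genes were called higher and lower. ANKRD1 was dim, at 5.19 and 4.82 against 6.72 and 5.91. CCN1 and CCN2, often used as reporters of the pathway, differed by 0.225 and -0.025 and were not called. CCN1 read 8.16 and 8.07 against 8.37 and 8.31, and CCN2 read 5.57 and 6.62 against 6.12 and 6.02. AXL, a receptor kinase, read 11.25 and 11.57 against 12.02 and 12.02, and AJUBA, an adaptor, differed by 0.655, neither called. Both mimic samples lay above both controls for 13 of 22 members and below for 2, where the shares over all genes were 19% and 18.8%. The letters GGAATG, bound by TEAD factors, were found on either strand in 6 of 17 promoters of the list, 35.29%, against 11.63% of all. Of those 6 genes ANKRD1 alone was called. The list was made of genes known to respond to YAP and TAZ, so the share describes the list and not its response.

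Elastic fibre and collagen cross-linking genes went both ways. This is the group of secreted and luminal proteins that build, modify and tie together matrix fibres, and 5 of its 32 measured members are published miR-29 targets. Of the 32, 11 were higher and 21 lower, with a median of -0.1175. The calls were 2 higher and 4 lower, against 0.334% and 0.695% of all genes. Both mimic samples lay above both controls for 4 members and below for 12, where the shares over all genes were 19% and 18.8%. FBN1, the fibrillin of microfibrils and a published target, read 9.15 and 8.68 in the controls and 7.73 and 8.08 with miR-29a-3p, a difference of -1.01. COLGALT1, which adds galactose to collagen, read 12.28 and 12.48 against 11.59 and 11.82, a difference of -0.675. P3H1, a prolyl hydroxylase of collagen, read 11.63 and 11.75 against 11.02 and 11.15, a difference of -0.605. The other member called lower was PPIC, at -1.4. In the other direction LOXL1, a lysyl oxidase of elastic fibres, read 5.27 and 5.64 against 6.80 and 7.01, a difference of 1.45, and PLOD2, which hydroxylates collagen lysines for cross-links, read 14.39 and 14.56 against 14.94 and 15.10, a difference of 0.545. LOXL1 was dim in the controls and read 5.99 and 6.77 with miR-223-3p. Of 31 collagen chains 23 had means under 6, and 0 were called in limma. With the constant prior 1 was higher and 4 lower at an unadjusted p under 0.05, against 4.19% and 4.67% of all genes. In the trend fit 0 were higher and 5 lower at that p.

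Cholesterol synthesis and uptake genes had 17 of 19 members lower and a median of -0.305, which was -0.18 without miR-29a-3p A. Sterols feed back on these genes through SREBF2, so they commonly move as a set. HMGCS1, the synthase ahead of the rate-limiting reductase, was called, at 12.06 and 12.01 against 11.27 and 11.45, a difference of -0.675. It is also on the published target list. No other of the 19 members was called, where 0.695% of all genes were called lower. Both mimic samples lay below both controls for 9 members and above for 0, against 18.8% and 19% of all genes. INSIG1, the sterol-dependent retention protein, read 8.91 and 8.58 against 8.23 and 8.02, and DHCR7, the last reductase of the pathway, read 13.17 and 13.07 against 12.62 and 12.82, neither called. Without each of the 4 samples 0 members were called in limma, and at an unadjusted p under 0.05 in the full data 2 were lower and 0 higher. SREBF2 itself read 11.31 and 11.41 against 10.68 and 11.33, so its samples differed more within the mimic group than within the control. The promoter of SREBF2 was the 1 of 17 in the list with the sterol element searched as TCACNCCAC, against 1.165% of all. This share too describes the list and not its response.

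Replication-dependent histones and Wnt genes were lower as lists without many calls. Of 43 histone genes 38 were lower, with a median of -0.245, and 2 were called, the linker histone H1-5 at -0.56 and H2BC14 at -0.425. Over all genes 0.695% were called lower, and the share was higher among bright genes. Both mimic samples lay below both controls for 17 of the 43 and above for 2, against 18.8% and 19% of all genes. Control sample A had a list mean of -0.171 and control B of 0.171 around their common mean, against -0.287 and -0.183 for the mimic samples. The median was -0.44 without control A and -0.065 without control B, so its size rests on the control samples. Histone genes are near-identical copies and may share signal. Of 38 Wnt pathway genes 25 were lower, with a median of -0.1825. Both mimic samples lay below both controls for 16 of 38 and above for 3, where the shares over all genes were 18.8% and 19%. None was called in limma. With the constant prior 6 were lower and 1 higher at an unadjusted p under 0.05, against 4.67% and 4.19% of all genes. In the trend fit 9 were lower and 1 higher at that p. The most negative were SFRP4, a secreted antagonist, at -0.99, AXIN2, a feedback target of the pathway, at -0.93, and the receptor FZD5 at -0.92. Of the 38, 16 had means under 6, AXIN2 and SFRP4 among them.

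Several other lists had medians near 0. The median was 0.0425 for 28 genes of oxidative phosphorylation, -0.0375 for 28 proteasome genes and -0.01 for 25 ribosomal proteins. None of these was called in limma, and the unadjusted p was under 0.05 for 0, 2 and 0 of them. The 36 interferon-stimulated genes had a median of 0.035 and 1 call, where 0.695% of all genes were called lower. It was IFIH1, a sensor of double-stranded RNA, at 11.10 and 10.81 against 10.10 and 10.37. The miR-223-3p samples read 10.17 and 10.04 for IFIH1. The 21 p53 targets had a median of 0.09, with 0 called by limma and 3 at an unadjusted p under 0.05. Of 15 genes of class I antigen presentation 12 were lower, with a median of -0.13, and both mimic samples lay below both controls for 6, against 18.8% of all genes. None of the 15 was called by limma, and 0 had an unadjusted p under 0.05. Of the 17 epithelial markers 12 were higher and 5 lower, with a median of 0.05, and 0 were called. The most negative of them was CDH1, the E-cadherin of cell junctions, at 10.79 and 10.82 against 10.26 and 9.67.

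**Figure D4:**
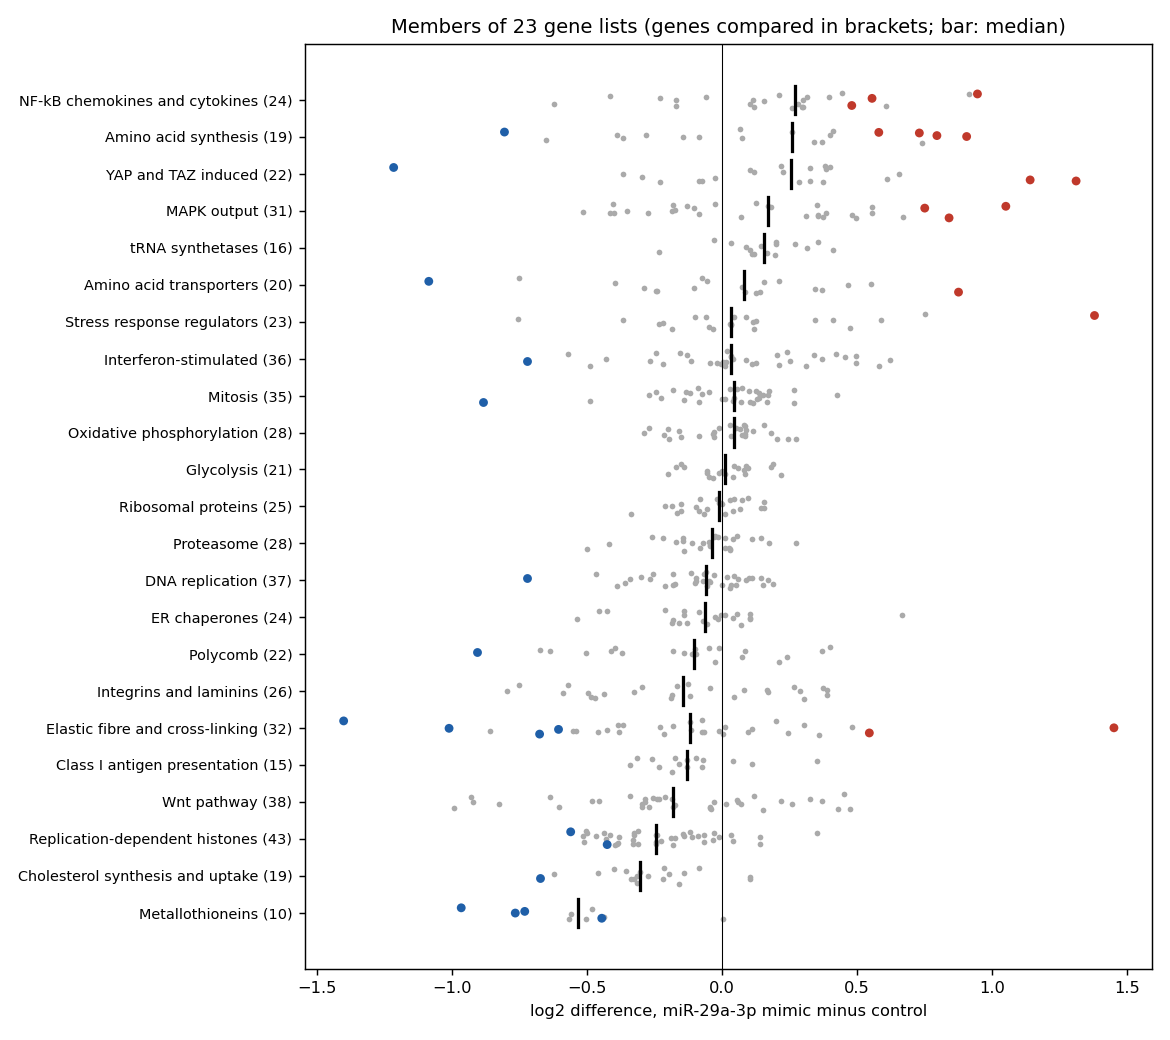
The log2 difference (miR-29a-3p minus control) of each member of 23 gene lists, with the number of genes compared in brackets; red and blue points are members called higher and lower with the intensity trend, grey points are not called, and the bar is the median. Medians run from -0.5325 for the metallothioneins to 0.27 for the NF-kB list, which holds chemokines, cytokines and other NF-kB genes. The ribosomal, proteasome, glycolysis and oxidative phosphorylation lists are centred near 0.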

How the data were processed

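Total RNA was labelled and hybridised to 1 array per sample. The deposited values are log2 signals per probe set, made with RMA on hg38 per the submitters' processing notes; the RMA version was not given in the sources used here. RMA makes arrays alike in distribution, so a change in total messenger RNA cannot be seen, and differences of dim genes are understated. A platform table named 1 gene for 17709 probe sets and none for 3739, and 22 were left out as a gene's second probe set (the brighter over all samples was kept). Symbols and coordinates are RefSeq's.

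All 6 samples entered 1 limma 3.58.1 fit in R 4.3.3 (3 residual degrees of freedom, constant prior, no block), with Benjamini-Hochberg adjustment over 17687 genes at 0.05. The prior following mean signal (the intensity trend) was an alternative. The others were the replicate letter as a block, the 4 samples alone, genes of mean signal 6 or more, a second quantile normalization, median centring, a robust prior, all probe sets, an unadjusted p with 1.5-fold, and each sample left out, where a lone sample is assumed to vary like the other groups. The procedure was checked on simulated data. With 2 samples against 2, an exact permutation test cannot go below 0.333, so none was used. The comparison and the 55 gene lists (51 functional, 1 of published targets, 3 of cell markers) were chosen with earlier results of these data known. Named genes are those past the main test, the 12 largest rises and falls called with the trend, called list members and up to 6 others per list, defining members and called neighbours; the genes called without each sample were added after their values were seen.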

Additional observations from a re-analysis of the deposited data

Results flagged for a closer look

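Among the 3739 probe sets with no gene name here, which the comparisons above do not use, 18 were called with the intensity trend when all 21448 probe sets were fitted in limma. Of these, 4 were higher and 14 lower with the miR-29a-3p mimic than in the controls. The lower one with the smallest adjusted p read 13.64 and 13.55 in the controls and 12.41 and 12.28 with the mimic, a difference of -1.25. Of the higher ones, one read 10.65 and 10.67 in the controls and 11.54 and 11.50 with the mimic, a difference of 0.86. The sequences they detect were not analysed here. Groups of 2 samples could not be tested for single samples that stand apart.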

How the results depend on the processing

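With limma's constant prior 2 genes were called. That count was 2 with the 4 samples alone, after a second quantile normalization, after median centring, with a robust prior and over all probe sets. It was 182 with the intensity trend and 826 at an unadjusted p under 0.05 with at least 1.5-fold. Among genes of mean log2 signal 6 or more it was 58, where fewer genes are tested and the prior variance is estimated without the dimmer genes. Without each sample it ranged from 0 to 0 in limma, with 1168 to 1633 genes at an unadjusted p under 0.05. With the intensity trend the count of 182 became 189 with the 4 samples alone, 196 after quantile normalization, 184 after centring, 174 with a robust prior, 176 over all probe sets, 285 among brighter genes, and 45 to 81 without each sample, alternatives partly chosen after seeing the data. All 182 genes kept their direction without a given sample. This was fixed beforehand, since in each of them both mimic samples lay on 1 side of both controls.

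The replicate letter as a block gave 0 calls with limma's constant prior (1679 genes at an unadjusted p under 0.05) and 276 with the trend, which held all 182. The letters share only a letter: deviations of the control and the mimic sample of one letter correlated at 0.0682, and 2 letters cannot show a pairing.

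For 65 named genes 0 of the values recomputed reversed, 85 crossed to an adjusted p under 0.05, 63 of them with the intensity trend, 10 crossed back and 617 kept their side. Since the constant prior called 2 of these genes, keeping a side mostly means staying uncalled. Their mimic samples lay apart from the controls, as in every called gene, so none could reverse when a sample was left out. The call of TM4SF4 and C1QTNF6 was lost under the block and without each sample. Of 12 list medians the one of MAP kinase output genes changed sign without 1 sample, and others changed in size. The smallest called difference was 1.175 among genes with means under 6 and 0.425 at 12 and over, so dim genes can differ without being called.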

Other observations

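Members of the S100 family, small calcium-binding proteins encoded in a cluster on chromosome 1, differed in opposite directions. Against the higher S100A3, S100A9 read 10.53 and 11.04 in the controls and 9.54 and 9.70 with miR-29a-3p, a difference of -1.165. Its dimer partner S100A8, which together with it forms calprotectin, was dimmer, at 5.75 and 5.34 against 3.88 and 4.58, a difference of -1.315. Both were called lower with the intensity trend, and the median of the 18 measured members was -0.0775. Of the 18, 1 was called higher and 2 lower, against 0.334% and 0.695% of all genes. In the miR-223-3p samples S100A9 read 10.46 and 11.05 and S100A8 5.37 and 5.33.

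Genes of plasma proteins best known from liver were measured at very different signals in this line, with 22 of 36 under a mean of 6. ALB and RBP4 were the 2 called, both lower, where 0.695% of all genes were, while the list median was 0.065. Single genes were called in other lists, where 0.334% of all genes were called higher and 0.695% lower. The polycomb reader CBX6 read 9.93 and 10.39 in the controls and 9.29 and 9.22 with miR-29a-3p, a difference of -0.905, among 22 polycomb genes with a median of -0.1025. GSTA4, a glutathione transferase, was called at -1.085 among 32 genes of glutathione and NRF2, whose median was 0.005, and HMOX1, heme oxygenase, read 7.21 and 7.13 against 8.14 and 8.22 without a call. CD68, a lysosomal protein often used as a macrophage marker, read 10.40 and 10.27 against 10.98 and 11.02 and was the 1 leukocyte marker called. PTPRC, the marker shared by leukocytes, lay between 4.63 and 4.89. Of 29 lysosome and autophagy genes the autophagy protein ATG9A was called, at -0.565, and the median was 0.08.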
